A study of Mus musculus with 8 samples.

Results

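Corticosteroid signalling in the distal convoluted tubule (DCT) was described through 9 genes, which are the glucocorticoid receptor Nr3c1, the mineralocorticoid receptor Nr3c2, the enzyme Hsd11b2 and 6 genes that corticosteroids induce, Sgk1, Tsc22d3, Fkbp5, Usp2, Zbtb16 and Klf9. The 9 genes were taken by name from 18782 genes that had a probe set with exactly 1 symbol, and each was read from its brightest such probe set. Klf9 had 2 probe sets and the other genes 1 each.

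The study set the DCT of TBC1D4-deficient mice beside that of wild-type mice. TBC1D4, also called AS160, switches off Rab GTPases that direct vesicle traffic, and it is abundant in this segment. All mice were male C57/Bl6 animals aged 8 weeks, and both genotypes carried EGFP under the parvalbumin promoter, so that fluorescent tubules could be collected with a COPAS large-particle sorter. Expression was read on 8 single-colour arrays from 100 ng of RNA each, with 4 TBC1D4-deficient and 4 wild-type samples. The sources used here do not give how the deficient allele was made or whether tubules of several animals were pooled. Since no label ties a sample to a single animal, all p-values rest on the spread among these 8 samples, which may be technical in part.

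Corticosterone and aldosterone enter cells freely and bind receptors held in the cytoplasm by HSP90 and its partners. The hormone-bound glucocorticoid or mineralocorticoid receptor moves to the nucleus and binds the same palindromic DNA element, which lies near genes such as Sgk1, Tsc22d3, Fkbp5, Zbtb16 and Klf9. In aldosterone-sensitive cells of the late DCT, connecting tubule and collecting duct, HSD11B2 inactivates glucocorticoids and so leaves the mineralocorticoid receptor to aldosterone. The parvalbumin-positive early DCT is known to contain both receptors and little HSD11B2.

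The upstream 250 bases of the transcription start were examined for the words of that element because several of the induced genes moved together between arrays. RefSeq promoter sequences (GRCm38.p6) matched 6 of the 9 genes with 13 windows, of which Sgk1 had 6 and Tsc22d3 had 3. Nr3c1, Hsd11b2 and Zbtb16 had no entry. The full palindrome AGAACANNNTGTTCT occurred in 3 of 32851 windows of this length (0.00913%), and 1 of these belonged to Sgk1. Its arms alone, AGAACA or TGTTCT, occurred in 16.1% of windows and the clock E-box CACGTG in 6.02%, and either strand reads both words because each set is its own reverse complement. Of the members' 13 windows, 4 held at least 1 arm. The 4 windows below show an Sgk1 start with the palindrome, a Tsc22d3 start with 1 arm, the Fkbp5 start with 1 E-box and the Usp2 start with neither word, and capitals mark the matches.
Sgk1, chr10:21993640-21993889, plus strand: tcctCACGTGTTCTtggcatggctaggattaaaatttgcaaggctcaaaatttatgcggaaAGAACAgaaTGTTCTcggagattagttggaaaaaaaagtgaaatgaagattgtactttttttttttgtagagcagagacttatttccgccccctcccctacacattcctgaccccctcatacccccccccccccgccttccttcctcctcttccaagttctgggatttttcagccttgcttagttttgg
Tsc22d3, chrX:140600523-140600772, minus strand: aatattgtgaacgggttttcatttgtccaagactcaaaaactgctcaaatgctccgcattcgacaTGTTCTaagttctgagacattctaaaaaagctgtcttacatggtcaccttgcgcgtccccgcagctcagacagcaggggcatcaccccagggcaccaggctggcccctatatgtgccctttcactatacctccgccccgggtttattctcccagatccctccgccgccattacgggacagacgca
Fkbp5, chr17:28486150-28486399, minus strand: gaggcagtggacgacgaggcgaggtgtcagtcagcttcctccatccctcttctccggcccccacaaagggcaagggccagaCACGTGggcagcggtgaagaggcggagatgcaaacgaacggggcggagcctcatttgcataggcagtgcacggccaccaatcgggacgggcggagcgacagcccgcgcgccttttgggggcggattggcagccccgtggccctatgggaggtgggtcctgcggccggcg
Usp2, chr9:44084670-44084919, plus strand: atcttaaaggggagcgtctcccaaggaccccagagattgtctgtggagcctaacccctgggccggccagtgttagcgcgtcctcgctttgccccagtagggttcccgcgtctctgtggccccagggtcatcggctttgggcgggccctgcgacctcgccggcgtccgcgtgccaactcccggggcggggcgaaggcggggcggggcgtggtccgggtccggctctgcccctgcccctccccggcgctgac
The Sgk1 palindrome ran from base -189 to base -175 before the annotated start, and a further arm at -242 overlapped an E-box at -246. The Tsc22d3 arm began at -185 and the Fkbp5 E-box at -169. These matches describe letters in short windows, and no binding was measured here.

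Probe set intensities of whole arrays correlated at r = 0.993 to 0.997 between arrays on the log2 scale, and no pair of arrays was identical. Tbc1d4 read 2.48 ± 0.21 log2 units (SD, n = 4) in TBC1D4-deficient and 6.75 ± 0.15 (n = 4) in wild-type samples, so the labels match the targeted gene (limma, adjusted p = 6.35e-08). The DCT transporter Slc12a3 averaged 11.49 in both genotypes. The group means were 2.71 and 2.72 for the podocyte gene Nphs1, and 2.33 and 2.32 for the leukocyte gene Ptprc, in wild-type and TBC1D4-deficient samples. Other genes of these cells were brighter, with means over all arrays of 4.69 for Podxl (podocyte) and 4.67 for Csf1r (immune cell). Such means ran from 4.31 (Fut9) to 9.60 (Slc34a1) for proximal tubule markers. For thick ascending limb markers they ran from 2.72 (Irx1) to 11.12 (Umod). The purity of the tubules was not tested. The table holds no detection call. As a guide to the dim range, 1155 olfactory and vomeronasal receptor genes had a median of 1.57 and a 95th percentile of 2.48.

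Both receptors were well above that dim range and varied less between arrays than Hsd11b2, Sgk1, Tsc22d3, Fkbp5, Usp2 and Zbtb16, though more than the median gene (SD over the 8 arrays 0.17 for Nr3c1 and 0.14 for Nr3c2, against 0.12). Nr3c1, the glucocorticoid receptor, read 5.87, 5.58, 5.94 and 5.74 log2 units in TBC1D4-deficient replicates 1 to 4 and 5.70, 5.58, 5.72 and 6.04 in wild-type replicates 1 to 4. Nr3c2, the mineralocorticoid receptor, read 6.49, 6.27, 6.53 and 6.46 in the deficient and 6.49, 6.47, 6.13 and 6.54 in the wild-type samples. The genotypes overlapped for both genes, and the highest array exceeded the lowest 1.38-fold for Nr3c1 and 1.32-fold for Nr3c2. Wild-type replicate 4 and TBC1D4-deficient replicate 3 were the 2 highest arrays for both. Their SD ranked at the 79.3th percentile of all genes for Nr3c1 and the 68.9th for Nr3c2.

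Hsd11b2, the glucocorticoid-inactivating enzyme, was about as variable as the induced genes other than Klf9. It read 6.60, 6.20, 5.79 and 6.61 in TBC1D4-deficient replicates 1 to 4 and 6.70, 6.13, 6.72 and 6.55 in the wild-type replicates. Its 3 lowest arrays were wild-type replicate 2 and TBC1D4-deficient replicates 2 and 3, separated from the other 5 by 0.35 log2 units. The highest array exceeded the lowest 1.91-fold, and its SD ranked at the 97.8th percentile. Its mean of 6.41 log2 units was well above the dim range and close to that of Nr3c2 (6.42). Intensities of different probe sets do not give the relative RNA amounts of different genes.

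Sgk1, the aldosterone- and glucocorticoid-induced kinase that restrains NEDD4L, was dim and read 3.28, 4.07, 4.31 and 3.72 in TBC1D4-deficient replicates 1 to 4 and 3.82, 4.21, 3.49 and 3.46 in the wild-type replicates. Its 3 highest arrays were TBC1D4-deficient replicate 3, wild-type replicate 2 and TBC1D4-deficient replicate 2, which are the 3 arrays where Hsd11b2 was lowest. The range of 2.05-fold was the widest of the 9 genes.

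Usp2, a deubiquitinating enzyme whose short form is aldosterone-induced in the kidney and rhythmic, was the brightest of the induced genes and read 7.58, 7.95, 8.10 and 7.70 in the deficient and 7.36, 7.94, 7.52 and 7.17 in the wild-type replicates. On the linear scale its intensity ran from 144.3 in wild-type replicate 4 to 274.5 in TBC1D4-deficient replicate 3, a 1.90-fold range. The same 3 arrays led, 0.24 log2 units above the fourth.

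Fkbp5, the HSP90 co-chaperone that lowers the hormone affinity of the glucocorticoid receptor, read 6.15, 6.62, 6.74 and 6.46 in the deficient and 5.98, 6.54, 6.12 and 6.16 in the wild-type replicates. Zbtb16, the zinc-finger repressor PLZF, was near the dim range at 2.97, 3.32, 3.40 and 2.92 in the deficient and 2.65, 3.20, 3.01 and 2.69 in the wild-type replicates. Tsc22d3, which encodes the glucocorticoid-induced leucine zipper GILZ, read 5.01, 5.34, 5.11 and 4.83 in the deficient and 4.52, 5.07, 4.64 and 4.80 in the wild-type replicates. All 3 genes were highest in wild-type replicate 2 and in TBC1D4-deficient replicates 2 and 3, and Fkbp5, Usp2 and Zbtb16 placed these arrays in the same order. Their highest arrays exceeded their lowest 1.68-fold for Fkbp5 and Zbtb16 and 1.77-fold for Tsc22d3.

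Klf9, a Krüppel-like transcription factor induced by corticosteroids and thyroid hormone, behaved differently. It read 7.34, 7.41, 7.54 and 7.25 in the deficient and 7.41, 7.68, 7.23 and 7.58 in the wild-type replicates, a 1.37-fold range. Its highest arrays were wild-type replicates 2 and 4, then TBC1D4-deficient replicate 3. Its second, dimmer probe set had the same 3 arrays on top, with values from 2.52 to 3.53.

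**Figure D1:**
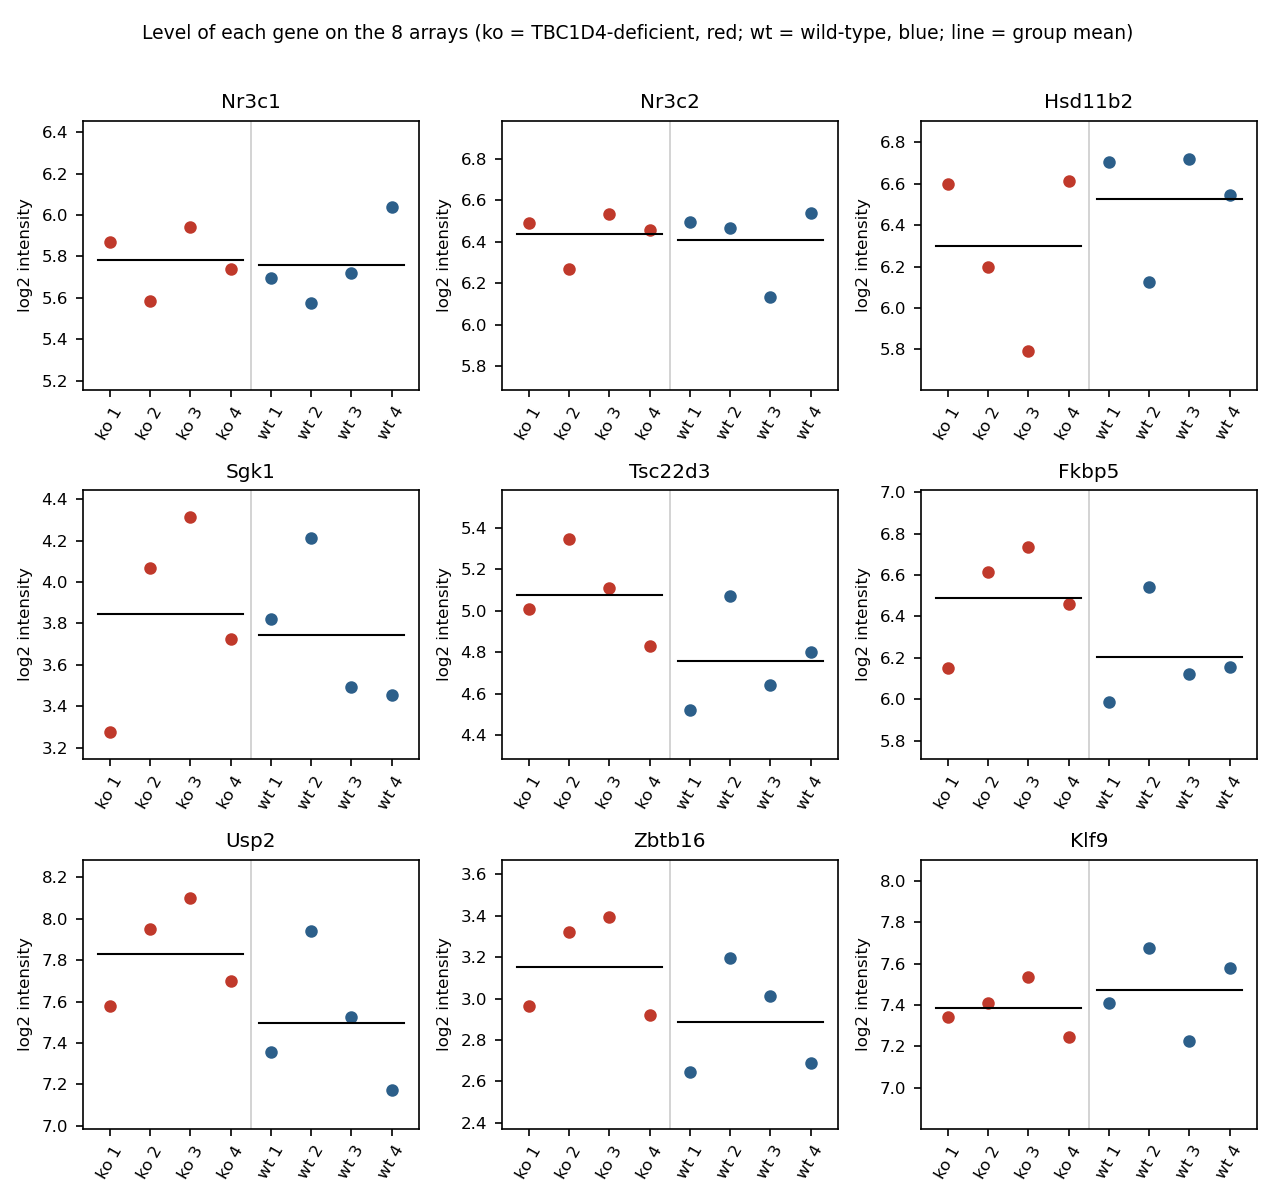
Log2 probe set intensity (vertical axis) of each of the 9 genes on the 8 arrays (horizontal axis; ko marks TBC1D4-deficient in red, wt wild-type in blue, and lines are group means of n = 4). For Sgk1, Tsc22d3, Fkbp5, Usp2 and Zbtb16 the 3 highest points are ko 2, ko 3 and wt 2, and for Hsd11b2 these are the 3 lowest; every panel spans the same range of log2 units.

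Thus 5 of the 6 induced genes shared their 3 highest arrays, and Hsd11b2 had the same arrays as its 3 lowest. Among all 18782 genes, 328 (1.75%) had these 3 arrays highest and 393 (2.09%) had them lowest. The 3 arrays came from both genotypes. They also came from both sets of numbers in the sample descriptions, whose meaning the sources do not give, with the number 12 for TBC1D4-deficient replicate 2, 6 for TBC1D4-deficient replicate 3 and 5 for wild-type replicate 2. With each gene expressed relative to its own 8-array average, the mean of the 6 induced genes was 0.26, 0.34 and 0.25 log2 units in these arrays. In the others it was -0.14 and -0.05 (deficient replicates 1 and 4) and -0.24, -0.19 and -0.22 (wild-type replicates 1, 3 and 4).

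The induced genes varied together across the 8 arrays, and Hsd11b2 varied against them. Pearson correlations among the 6 genes were above 0 in 15 of 15 pairs, with a median r of 0.76 (range 0.20 to 0.95). Among Sgk1, Tsc22d3, Fkbp5, Usp2 and Zbtb16 the 10 correlations ran from 0.49 to 0.95 with a median of 0.80. Klf9 was looser, with r of 0.20 to 0.52 against the other 5 genes. As background, the r of the 6 genes with all other genes had a median of -0.02, with 5th and 95th percentiles of -0.64 and 0.62.

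The closest pair was Usp2 and Zbtb16 (r = 0.95, rho = 0.88, n = 8, exact permutation p = 0.000992 for r and 0.00724 for rho). Only 0.0213% of all genes followed Usp2 as closely as Zbtb16 did. Fkbp5 and Usp2 followed (r = 0.91, rho = 0.86, exact permutation p = 0.00305 and 0.0107). Sgk1 correlated at 0.79 with both Fkbp5 and Usp2, and at 0.49 with Tsc22d3. Tsc22d3 and Fkbp5 had an r of 0.81 and a rho of 0.90.

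Hsd11b2 was negatively correlated with every induced gene, from -0.75 with Tsc22d3 to -0.88 with Fkbp5 among the 5 that moved together, and at -0.63 with Klf9. For Hsd11b2 and Fkbp5 the exact permutation p was 0.00198 for r and 0.00724 for rho (-0.88), and 0.224% of genes were as negative with Hsd11b2. The 12 correlations of Nr3c1 and Nr3c2 with the induced genes ran from -0.39 to 0.55 over the 8 arrays, with a median of -0.12. For Nr3c1 they depended on the arrays included. Without wild-type replicate 4 and TBC1D4-deficient replicate 3, the 2 arrays farthest from its median, Nr3c1 was negative with all 6 induced genes, from -0.37 with Tsc22d3 to -0.95 with Sgk1, and correlated at 0.75 with Hsd11b2. For Nr3c2 the 6 values without wild-type replicate 3 and TBC1D4-deficient replicate 2 ran from -0.18 to 0.41. Nr3c1 and Nr3c2 themselves correlated at 0.51 (exact permutation p = 0.194).

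**Figure D2:**
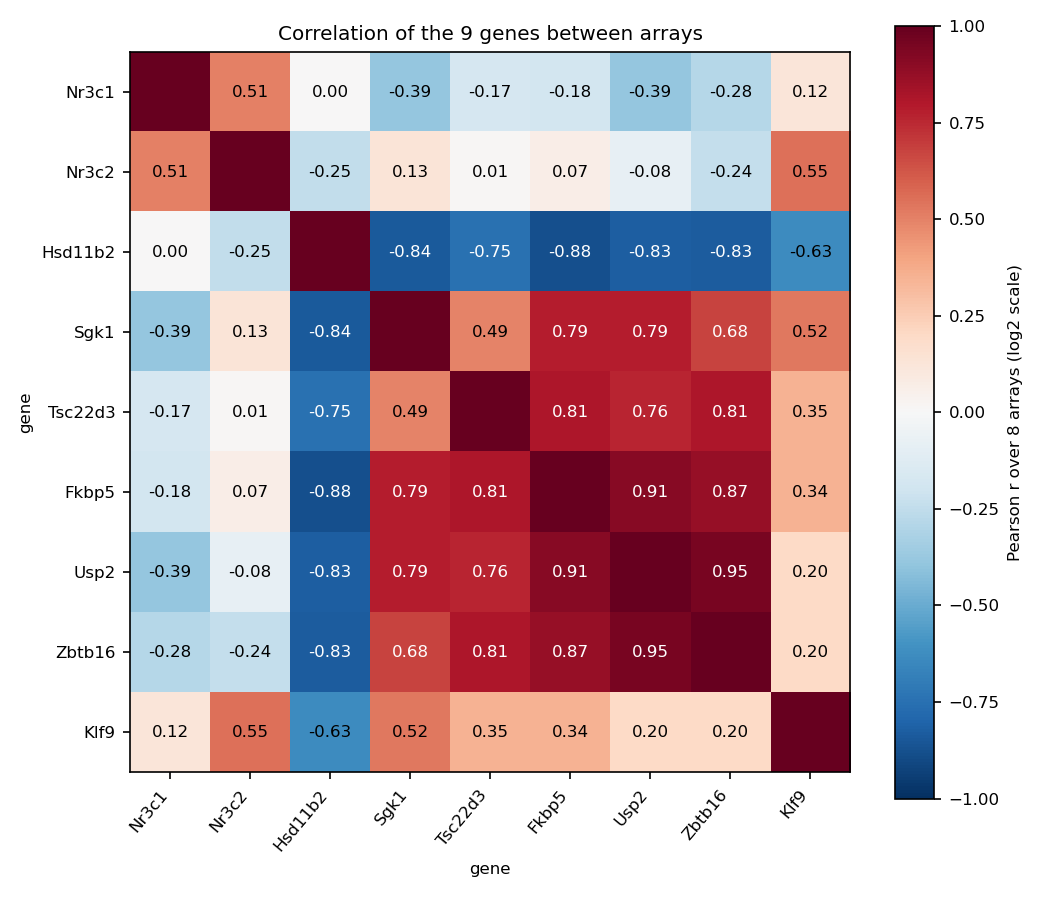
Pearson r over the 8 arrays, on the log2 scale, for every pair of the 9 genes (rows and columns; colour scale from -1 in blue to 1 in red). Sgk1, Tsc22d3, Fkbp5, Usp2 and Zbtb16 form a block of 0.49 to 0.95, the Hsd11b2 row is negative against all 6 induced genes, and the rows of Nr3c1 and Nr3c2 range from -0.39 to 0.55 against them over all 8 arrays.

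Of the 36 pairs, 13 had an unadjusted exact permutation p below 0.05, and 3 passed 0.05 after Benjamini-Hochberg adjustment over the 36 pairs by Pearson's r, which were Usp2 with Zbtb16 (adjusted p = 0.0357), Hsd11b2 with Fkbp5 (0.0357) and Fkbp5 with Usp2 (0.0366). None passed by Spearman's rho, where the smallest adjusted exact permutation p was 0.0652. The genes were chosen with earlier results of these arrays known, so these p-values describe the arrays and are not independent evidence. Leaving out the 2 arrays farthest from the median of the first gene gave r = 0.91, -0.80 and 0.85 for these 3 pairs, and removing the genotype means gave 0.93, -0.88 and 0.86, with adjusted exact permutation p of 0.104, 0.104 and 0.113. Removing the means of the number sets also ended all 3 calls (adjusted exact permutation p = 0.0625 for each). In both removals arrays were re-paired only within groups, 576 ways by genotype, so p had a higher floor than over all pairings. Those lost calls therefore cannot show whether the correlations depend on genotype or number set. With 1 array left out, calls were counted only among pairs of the induced genes with each other or with Hsd11b2. Leaving out TBC1D4-deficient replicate 1, 2 or 3 or wild-type replicate 1, 2 or 3 left 0 such pairs past the threshold each time. Without TBC1D4-deficient replicate 4 the pair of Fkbp5 and Usp2 was lost (adjusted exact permutation p = 0.0839). Without wild-type replicate 4 the pair of Hsd11b2 and Fkbp5 was lost (adjusted exact permutation p = 0.0798). In both cases 3 such pairs were called. A renewed quantile normalization also ended the call for Hsd11b2 and Fkbp5 (adjusted exact permutation p = 0.0558). The size of r moved less, from 0.92 to 0.96 for Usp2 and Zbtb16, from 0.86 to 0.98 for Fkbp5 and Usp2, and from -0.96 to -0.83 for Hsd11b2 and Fkbp5.

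Genes outside the set that followed the mean of the 6 induced genes most closely were ranked among 480 genes with a mean of at least 5 log2 units and an SD of at least 0.2. The highest r belonged to Zhx3, a zinc-finger and homeobox repressor (0.97), Cdr2 (0.94), Sh3rf1 (0.85), Cables1 (0.84), Rapgef3, the cAMP-activated exchange factor EPAC1 (0.82), Cdc42ep1 (0.81), Mturn (0.80) and the sulfotransferase Sult1a1 (0.80). Zhx3 read 6.64, 6.89, 7.07 and 6.69 in the deficient and 6.59, 7.03, 6.58 and 6.59 in the wild-type replicates, so it too was highest in wild-type replicate 2 and TBC1D4-deficient replicates 2 and 3. The lowest r belonged to Hsd11b2 (-0.94), Zfp229 (-0.90), the tetraspanin Tspan6 (-0.88) and B3glct (-0.83).

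By gene, Cdr2 was the closest for Usp2 (0.96), Fkbp5 (0.94) and Tsc22d3 (0.79), Rapgef3 for Zbtb16 (0.95), Zhx3 for Sgk1 (0.89) and Peli2 for Klf9 (0.87). Sgk1 was next followed by the clock gene Per1 (0.83) and the stress gene Gadd45g (0.80). Hsd11b2 was followed by Arpc1b, a subunit of the actin-nucleating ARP2/3 complex (0.91), Zfp229 (0.89) and Tspan6 (0.80). The nearest genes of the receptors were others, Nrep (0.94), Lipo3 (0.93) and Mospd1 (0.90) for Nr3c1, and Zfp740 (0.92), Fbxl20 (0.91) and Mreg (0.91) for Nr3c2.

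A wider list of corticosteroid-induced genes followed the 6 genes only in part. Of its 38 measured genes 27 (71.1%) had an r above 0 with the mean of the 6 genes, against 47.9% of all genes, and 10 (26.3%) had an r above 0.5, against 10.5%. The list's median r was 0.22. The highest were Sult1a1 (0.80), the cell-cycle inhibitor Cdkn1a (0.80), Scnn1a, the alpha subunit of the epithelial sodium channel (0.79), and Per1 (0.77). Other well-known glucocorticoid-induced genes did not follow, with r of -0.08 for the phosphatase Dusp1, 0.23 for the kinase Pdk4 and 0.26 for the mTORC1 inhibitor Ddit4. Cdkn1a, Dusp1, Pdk4 and Ddit4 were chosen after their values were seen.

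Per1, a core clock gene that glucocorticoids also induce, read 5.44, 5.76, 6.13 and 5.17 in the deficient and 5.71, 6.23, 5.30 and 4.82 in the wild-type replicates, and its 3 highest arrays were again wild-type replicate 2 and TBC1D4-deficient replicates 2 and 3. Among 16 measured clock genes the median r with the mean of the 6 genes was 0.09, and 3 exceeded 0.5, which were Per3 (0.79), Per1 and Per2 (0.62). Npas2, the paralog of Clock, had the lowest value (-0.78). Per3 was chosen after its values were seen. The sources used here do not give the time of day at which tubules were taken, and the part of clock phase in the shared variation was not tested.

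Receptor chaperones and co-regulators, 20 genes measured, had a median r of 0.16, with 4 above 0.5. Steroid-metabolising enzymes and other steroid receptors, 16 genes that include Hsd11b2, had a median of -0.10, with 0 above 0.5. The 23 immediate early genes, which respond to tissue handling, had a median r of -0.03, and their mean ran from -0.41 to 0.71 log2 units over the arrays, with the highest value in wild-type replicate 1, where the mean of the 6 induced genes was lowest. Proximal tubule markers, 23 genes, had a median r of -0.0016 and list means of -1.0 to 0.71. The median r was 0.17 for 11 DCT markers, 0.27 for 9 thick ascending limb markers, -0.18 for 8 intercalated cell markers, -0.17 for 13 endothelial markers, 0.04 for 11 immune cell markers and 0.02 for 10 podocyte and stroma markers.

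**Figure D3:**
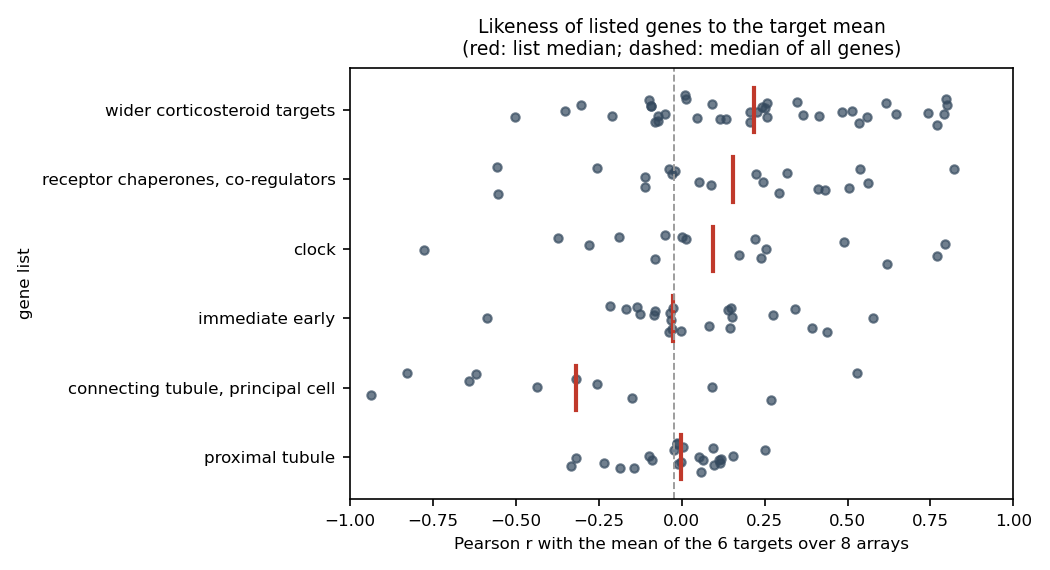
Pearson r over 8 arrays of each listed gene with the mean of the 6 induced genes (horizontal axis; each point is 1 gene, rows are gene lists, red bars are list medians and the dashed line is the median of all genes at -0.02). The wider corticosteroid list has a median of 0.22 with 10 of 38 genes above 0.5, and the connecting tubule and principal cell list, which holds Hsd11b2, has a median of -0.32.

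Some markers of the connecting tubule and of principal cells, where HSD11B2 is normally abundant, followed Hsd11b2 and others did not. Of the 10 other genes of the list 7 had an r above 0 with Hsd11b2, and 4 (40%) had an r above 0.5, against 11.2% of all genes. Aqp2, the vasopressin-regulated water channel, correlated with Hsd11b2 at 0.85 and read 5.01, 4.81, 4.57 and 5.01 in the deficient and 5.20, 4.50, 5.63 and 5.07 in the wild-type replicates. Like Hsd11b2, it was lowest in wild-type replicate 2 and TBC1D4-deficient replicates 2 and 3. The sodium channel subunit Scnn1b correlated with Hsd11b2 at 0.73, the water channel Aqp3 at 0.68, the sodium channel subunit Scnn1g at 0.63 and Fxyd4, a regulator of the sodium pump, at 0.27. The alpha subunit of the same channel, Scnn1a, was counted in the wider corticosteroid list and went the other way, at -0.71. Elf5 (-0.51, in the dim range), the potassium channel Kcnj1 (-0.20) and the transcription factor Gata3 (-0.0054) had values below 0, and the calcium-binding protein Calb1 stood at 0.12. Scnn1g, Elf5, Kcnj1, Gata3 and Calb1 are named here after their values were seen. The list's 11 genes had a median r of -0.32 with the mean of the 6 induced genes. The mean of the 10 genes other than Hsd11b2 was -0.01, -0.01, -0.17 and -0.01 log2 units in TBC1D4-deficient replicates 1 to 4 and 0.08, -0.01, 0.14 and -0.01 in wild-type replicates 1 to 4. It was lowest in TBC1D4-deficient replicate 3, while TBC1D4-deficient replicate 2 and wild-type replicate 2, both low for Hsd11b2, did not stand apart from most other arrays. This mean includes bright genes that hardly varied, such as Calb1 (mean 11.09, SD 0.04), also on the DCT list, and Kcnj1 (10.60, SD 0.03). Such genes dampen its movement, so it cannot show what Aqp2 or Aqp3 show singly. In bulk tubules, fewer cells of a type and less RNA per cell cannot be told apart. The part of such cells in the variation of Hsd11b2 was not tested.

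**Figure D4:**
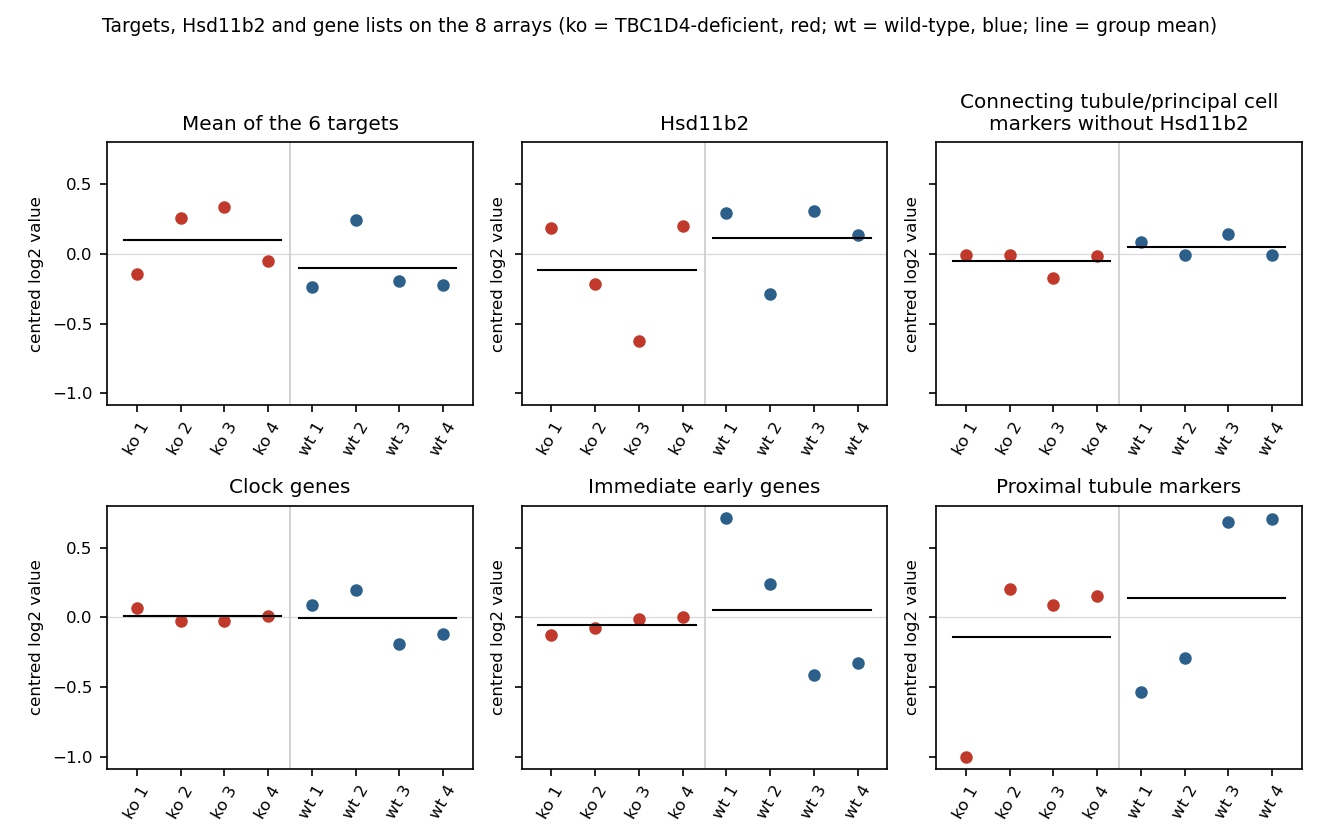
Mean log2 value per array, relative to each gene's 8-array average, for the 6 induced genes, Hsd11b2 and 4 gene lists (vertical axis, log2 units; ko marks TBC1D4-deficient in red, wt wild-type in blue, lines are group means of n = 4). The mean of the induced genes is 0.25 to 0.34 in ko 2, ko 3 and wt 2, where Hsd11b2 is lowest, whereas the proximal tubule list runs from -1.0 in ko 1 to 0.71 in wt 4.

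Loss of TBC1D4 was next compared with wild type for the same genes. None of the 9 genes passed the threshold (limma, Benjamini-Hochberg over 23039 probe sets, adjusted p = 0.9999 for each), against 0.00434% of all probe sets, a single one, which was that of Tbc1d4. At an unadjusted p below 0.05 there was 1 of 9, Tsc22d3, against 2.9% of all probe sets in either direction and 1.42% in its direction, higher in TBC1D4-deficient samples. That count rested on single arrays. It was 0 without TBC1D4-deficient replicate 2 or 3 or wild-type replicate 1, 3 or 4, and 2 without TBC1D4-deficient replicate 1 (Fkbp5 and Usp2). Without wild-type replicate 2 it was 4 (Tsc22d3, Fkbp5, Usp2 and Zbtb16). It was 3 (Tsc22d3, Fkbp5 and Usp2) with each array centred on its median and with the number set or neighbouring description numbers in the model. The genotypes overlapped for all 9 genes, whereas 1.85% of all probe sets had groups that did not overlap.

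Differences are given as TBC1D4-deficient minus wild-type on the log2 scale, each with the 95% interval of the limma fit. The receptors differed by 0.03 for Nr3c1 (-0.22 to 0.27) and 0.03 for Nr3c2 (-0.19 to 0.25), which lie inside a 1.5-fold change in either direction. Klf9 also lay inside that range at -0.09 (-0.32 to 0.14). These were the 3 of 9 genes whose interval excluded a 1.5-fold change, whereas 97.5% of all genes did. The genotype differences of the other 6 genes were thus estimated less precisely than those of most genes. These widths reflect the spread among samples of a group, whatever its source. Hsd11b2 differed by -0.22 (-0.65 to 0.20) and Sgk1 by 0.10 (-0.40 to 0.60), and neither interval excluded a 1.5-fold change.

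Usp2, Fkbp5, Tsc22d3 and Zbtb16 had higher means in the TBC1D4-deficient samples, none past the adjusted threshold. Usp2 averaged 7.83 ± 0.24 (SD, n = 4) against 7.50 ± 0.33 in wild type, a difference of 0.33 (-0.03 to 0.70). Fkbp5 averaged 6.49 ± 0.25 against 6.20 ± 0.24, a difference of 0.29 (-0.03 to 0.61). Tsc22d3 averaged 5.07 ± 0.21 against 4.76 ± 0.24, a difference of 0.32 (0.02 to 0.61). These sizes are close to the spread between replicates, and the high wild-type replicate 2 lay within the range of the deficient values. Zbtb16 differed by 0.26 (-0.06 to 0.59). Of the 6 induced genes 5 lay above 0 with a median of 0.28, against 49.6% of all genes above 0 and a median of -0.0007. These genes varied together between arrays, so their differences are not separate observations.

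Within the arrays numbered 5 to 8 in the descriptions the difference was 0.17 for Usp2, 0.27 for Fkbp5, 0.12 for Tsc22d3 and 0.05 for Zbtb16. Within those numbered 9 to 12 it was 0.50, 0.31, 0.51 and 0.48. Hsd11b2 differed by -0.22 in both sets, but its difference moved from -0.36 without wild-type replicate 2 to -0.053 without TBC1D4-deficient replicate 3. For Nr3c1 and Nr3c2 the sign turned between the sets, with 0.19 for each in the first and -0.14 for each in the second. With genotype in the model, none of the 9 genes differed between the number sets (limma, adjusted p = 0.446 for Usp2), against 0.00868% of all probe sets. At an unadjusted p below 0.05 (limma) the number sets had 11.6% of all probe sets, against 2.9% for genotype. The smallest unadjusted p of the 9 genes for number set was 0.057 (limma), for Usp2. Usp2 had a difference of -0.30 (-0.61 to 0.01) for the higher numbers.

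**Figure D5:**
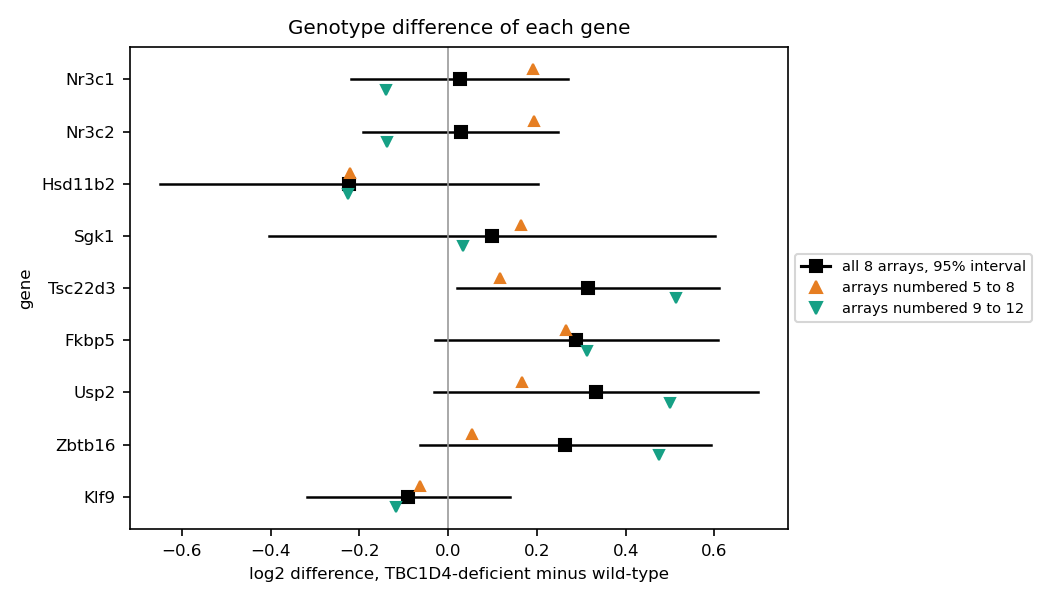
Log2 difference between TBC1D4-deficient and wild-type samples for each gene (horizontal axis; squares with 95% limma intervals over all 8 arrays, triangles within the arrays numbered 5 to 8 or 9 to 12). Only the interval of Tsc22d3 (0.02 to 0.61) excludes 0 before adjustment, and the triangles of Nr3c1 and Nr3c2 lie on opposite sides of 0.

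The other genes of the pathway showed no genotype difference past the threshold either. In the wider corticosteroid list 21 of 38 genes lay above 0 and 17 below, with a median of 0.0063 and 0 called (limma; 0 of 38 also at an unadjusted p below 0.05). Its smallest p-values were those of Scnn1a (0.14), the liver enzyme Tat (-0.14), the lipid transporter Mfsd2a (-0.33) and the lipocalin Lcn2 (0.26). Among 20 chaperones and co-regulators 13 lay above 0, with a median of 0.0044 and 0 called (0 at an unadjusted p below 0.05); the acetyltransferase Ep300 differed by 0.15, the co-chaperone Fkbp4 by 0.13, the membrane-associated progesterone receptor component Pgrmc1 by 0.11 and the HSP70 family chaperone Hspa8 by 0.06. Of 16 steroid enzymes and receptors 4 lay above 0, with a median of -0.04 and 0 called (0 at an unadjusted p below 0.05). Hsd11b1, which regenerates active glucocorticoid, lay near the dim range at 2.89 ± 0.13 in deficient and 2.73 ± 0.06 in wild-type samples (SD, n = 4), a difference of 0.16 (-0.002 to 0.33). Hsd17b4, Srd5a3 and the estrogen receptor Esr1 differed by 0.07, 0.09 and -0.07. Of 16 clock genes 10 lay above 0, with a median of 0.04 and 0 called (0 at an unadjusted p below 0.05); Npas2 differed by -0.33, Cry1 by 0.19, Per2 by 0.33 and Tef by 0.10.

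Markers of other cells stood beside these differences as follows. The 11 connecting tubule and principal cell genes, Hsd11b2 among them, all lay below 0 with a median of -0.07 (Aqp3 -0.25, Aqp2 -0.25, Fxyd4 -0.16, Scnn1b -0.15). The 13 endothelial genes also all lay below 0, with a median of -0.27 and 7 (53.8%) at an unadjusted p below 0.05 (limma), against 1.54% of all genes in that direction. Their list mean was lowest in TBC1D4-deficient replicate 1, at -0.39 log2 units. Markers of the same cell type can vary together between arrays, so the counts within a list are not separate observations. Below 0 were also 22 of 23 proximal tubule genes (median -0.27), 18 of 23 immediate early genes (median -0.09), 7 of 8 intercalated cell genes (median -0.19), 5 of 9 thick ascending limb genes (median -0.04) and 7 of 10 podocyte and stroma genes (median -0.05). Above 0 were 9 of 11 immune cell genes (median 0.07) and 7 of 11 DCT markers (median 0.02). None of these genes passed the threshold (limma), and the part of other cells in the values of the 9 genes was not tested.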

How the data were processed

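Expression was measured in 4 TBC1D4-deficient and 4 wild-type samples, with groups taken from the titles. What the authors deposited is 1 column of linear probe set intensity values for each sample. Affymetrix Power Tools was used, per the submitters' processing notes. The sources used here do not give its version, how probes were summarised or how arrays were normalized. The medians of the 8 columns were 8.41 to 9.03. A normalization to equal distributions would hide any change common to most genes.

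Here log2 was taken without a pseudocount or filter. Genotypes were tested in limma 3.58.1 (R 4.3.3; lmFit and eBayes) over 23039 probe sets with at least 1 symbol, of 28371 in all. Correlations over the full set of arrays had exact 2-sided permutation p-values over all 40320 pairings (scipy 1.17.1). With genotype or number set means removed, arrays were re-paired only within groups, 576 ways by genotype. With 1 array left out, the remaining arrays also gave fewer pairings. The 9 genes and all lists were chosen with earlier results of these data known. Named beyond them were Tbc1d4, up to 4 genes per list with the smallest genotype p, and the genes most like each profile, with predicted and Riken genes, olfactory and vomeronasal receptors and small RNAs left out. Symbols are those of the platform annotation. The scripts were tested on simulated data. The number of arrays limits the precision. Alternatives were other scalings, filters, blocks and covariates, and leaving out each array.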

Additional observations from a re-analysis of the deposited data

Results flagged for a closer look

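Within the groups of 4 samples, 44 sets of values were examined for a sample far from the others, and 4 had a gap to the nearest sample above the 95% critical value relative to the range of the group. Chance alone is expected to give flags at a rate of about 5%.

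Nr3c2 in the wild-type samples had such a gap, 0.83 of the range. Wild-type replicate 3 read 6.13 and the others 6.47 to 6.54. The Nr3c2 difference was 0.03 with this replicate and -0.06 without it. Leaving out TBC1D4-deficient replicate 3 also turned its sign.

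The other 3 were marker list means in the TBC1D4-deficient samples. The proximal tubule mean of replicate 1 was -1.0 log2 units against 0.09 to 0.21 in the others, a gap of 0.901 of the range. The thick ascending limb mean of replicate 1 was -0.25 against 0.04 to 0.06, a gap of 0.947. The intercalated cell mean of replicate 2 was 0.36 against -0.30 to -0.21, a gap of 0.866.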

How the results depend on the processing

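The number of the 9 genes called by genotype stayed at 0 under the 22 alternatives run, and the lowest adjusted p of any of them was 0.997 (limma). With only probe sets of a mean of at least 5 log2 units, 0 probe sets were called in all, since the mean of Tbc1d4 (4.61) falls under that filter. The median r of the 6 induced genes was 0.69 to 0.80. Under the alternatives, calls were counted only among pairs of the induced genes with each other or with Hsd11b2, adjusted over all 36 pairs. The number past the threshold was 0 with genotype means removed and 0 with number set means removed, where p rested on fewer pairings. It was 6 with log2 of the value plus 16, and 0 to 3 when 1 array was left out. The cause was not tested. The Nr3c1 difference turned to -0.14 in the arrays numbered 9 to 12, and that of Nr3c2 to -0.14 there and to -0.048 with the identifier range as a covariate. Leaving out 1 array gave -0.035 to 0.12 for Nr3c1, -0.063 to 0.085 for Nr3c2, -0.058 to 0.29 for Sgk1 (below 0 without TBC1D4-deficient replicate 3) and an r of -0.025 to 0.61 for Usp2 with Klf9. The deviations of same-numbered replicates correlated at -0.23 to 0.53 over the 4 numbers, against -0.46 to 0.43 for the other combinations. These few overlapping values do not settle whether the numbers pair the samples, and the labels do not say so. With the replicate number as a block, 1 probe set and 0 of the 9 genes were called, and 4 of the 9 had an unadjusted p below 0.05 (limma).

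Sgk1, Zbtb16, Hsd11b1, Tat, Mfsd2a and Lcn2 are dim, where an array understates fold changes. With 4 samples a group, the intervals of Hsd11b2, Sgk1, Tsc22d3, Fkbp5, Usp2 and Zbtb16 reach past a 1.5-fold difference. The 3 arrays that share high values of the induced genes were noticed from those values, so they are no group of the study.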
